A study of Mus musculus with 24 samples.

Results

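Oxidative phosphorylation in mouse liver was read here from the subunits of complexes I to V, and the subunits encoded in the nucleus were set beside those encoded in the mitochondrial genome. The members were the rows of the count table whose mouse symbols follow the naming patterns of the Nduf, Sdh, Uqcr, Cox and Atp5 families or of the protein-coding mitochondrial genes, without symbols that carry the pseudogene suffix -ps. They came to 96 of 56205 gene rows, 83 nuclear and 13 mitochondrial, and 90 of them (77 nuclear and 13 mitochondrial) passed the edgeR filter on low counts together with 14109 genes in all. Some subunits carry other symbols and lie outside these patterns, among them Cox4i1, Cyc1 and Ndufab1.

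The respiratory chain passes electrons from NADH through complex I, and from succinate through complex II, to complex III and on to complex IV, which reduces oxygen. Complexes I, III and IV pump protons, and complex V, the ATP synthase, uses the gradient to make ATP. Complex II is made of nuclear products alone, whereas the other complexes need subunits from both genomes, so hepatocytes, which are rich in mitochondria, have to express the 2 sets together.

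The libraries came from whole livers of C57BL/6J mice kept for 20 weeks either on a control chow or on a diet lacking methionine and choline (MCD), a dietary model of steatohepatitis and fibrosis that the methods call high in fat. Each diet had 12 libraries from separate animals of both sexes, with no sex given for any one library, and all animals carried the same wild-type background. RNA was selected by its poly(A) tail, so a shorter tail and fewer transcripts of a mitochondrial gene cannot be told apart in these counts. In these bulk samples fewer hepatocytes and less RNA per hepatocyte cannot be told apart either.

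The libraries held 16388650 to 24915175 counts. Changes are given as log2 fold changes of MCD over control from an edgeR quasi-likelihood fit with TMM scaling, and a gene is called at a false discovery rate (FDR) of 0.01 or less with a change beyond 0.5 on the log2 scale. Levels are given as CPM, the counts of a gene relative to the TMM-scaled size of its library. Control replicate 12 stood apart: its TMM factor was 0.64, against 0.79 to 0.97 in the other control libraries and 1.07 to 1.26 in the MCD libraries. A length score, the Spearman correlation over 12953 genes between transcript length and a library's difference from the control median, was -0.54 in that library, 0.45 and 0.41 in control replicates 3 and 6, -0.17 to 0.11 in the remaining controls and -0.26 to -0.15 in the MCD libraries. Values without control replicate 12 are therefore given beside results that move with it. Scaling also set the balance of all genes, since 50.2% of the called genes were higher in MCD liver with TMM, 65.6% with upper-quartile factors and 84.3% with total counts alone, which raised the median of all genes by 0.15 and 0.37 on the log2 scale.

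All 13 mitochondrial members fell in MCD liver. Their log2 fold changes ran from -0.50 (mt-Nd1) to -1.30 (mt-Nd5) with a median of -0.77, beside a median of -0.10 over all genes tested, of which 19.1% were called lower and 19.2% higher. Every one of the 13 stayed below 0 in each of the other fits and scalings except those set on the mitochondrial members themselves. With total counts alone their median was -0.39 and 5 of the 13 were called (6.01% of all genes were called lower). The FDR limit was missed as well by mt-Nd1 (edgeR FDR = 0.182), mt-Co1 (edgeR FDR = 0.0581), mt-Nd4 (edgeR FDR = 0.0178) and mt-Nd3 (edgeR FDR = 0.0171). In 5 of the 13 (mt-Nd6, mt-Cytb, mt-Co2, mt-Co3 and mt-Atp6) every MCD library lay below every control library, a pattern held by 4.88% of all genes tested. Without control replicate 12 the pattern held for 12 of the 13, all but mt-Nd3, beside 10.2% of all genes, and all 13 were still called lower, beside 17.9% of all genes called lower and 21.5% called higher.

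**Figure D1:**
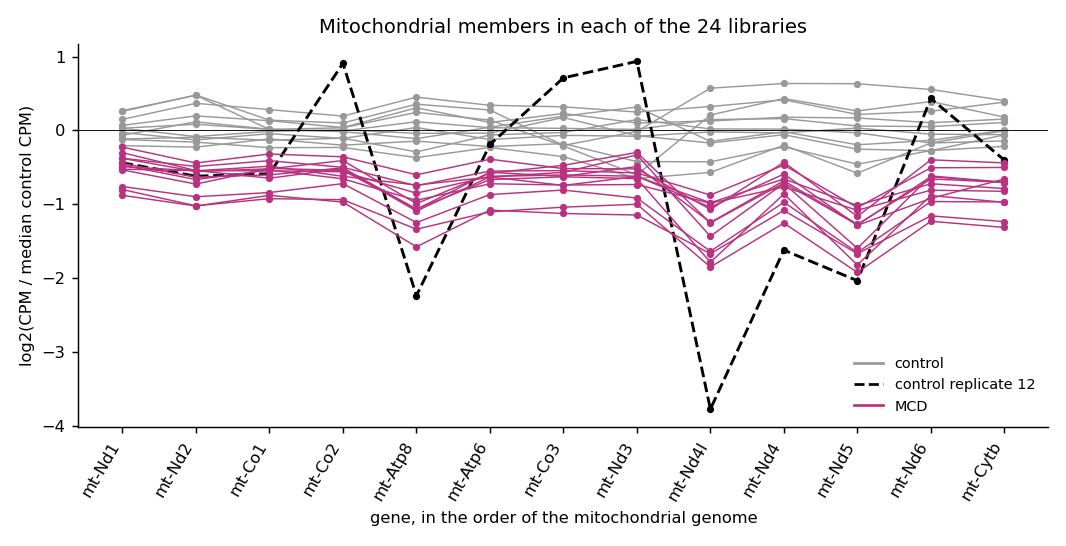
Level of each mitochondrial member in each library, as the log2 of its CPM over the median control CPM (vertical axis), with genes in the order of the mitochondrial genome (horizontal axis); each line is 1 library. The 12 MCD libraries run below the 11 other controls at nearly every gene, with their deepest points at mt-Nd4l and mt-Nd5, and control replicate 12 (dashed) falls to the lowest level of all libraries at mt-Atp8, mt-Nd4l, mt-Nd4 and mt-Nd5 and is the highest at mt-Co2, mt-Co3 and mt-Nd3.

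Complex I takes 7 core subunits from the mitochondrial genome, all of them part of its membrane arm. mt-Nd5, the most distal of the proton-pumping subunits, had 1334 CPM in control replicate 12, 3663 to 8488 in the other controls (control median 5475) and 1442 to 2705 (median 2249) in the MCD libraries. Apart from control replicate 12, no control overlapped with the MCD range. The fitted change was -1.30 ± 0.19 (SE, n = 12 per diet, edgeR FDR = 1.16e-06), and -1.36 without that library. mt-Nd4l ranged from 880 to 1941 CPM in 11 controls and from 362 to 712 in MCD liver, with 95.3 in control replicate 12, the lowest value of all 24. Its change was -1.21 ± 0.25 (edgeR FDR = 0.000159), but -0.54 with the length score as a covariate (edgeR FDR = 0.0683), which ended the call, as it did for mt-Nd4 (-0.39). mt-Nd4 (-0.80), mt-Nd2 (-0.73) and mt-Nd3 (-0.69) were also called, mt-Nd3 with overlapping groups. mt-Nd1 had the smallest change, from a control range of 4426 to 7228 CPM (median 6002) to 3261 to 5128 (median 4299) in MCD liver. At -0.50 ± 0.09 (edgeR FDR = 3.07e-05) it sat at the fold limit, and it was called in 9 of the 24 fits that left out 1 library. mt-Nd6, the only member encoded on the other strand of the mitochondrial genome, went from 1373 to 2439 CPM in controls to 707 to 1260 in MCD liver, without overlap, and its change was -0.86 ± 0.11 (edgeR FDR = 3.16e-07).

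mt-Cytb, the cytochrome b of complex III and its single mitochondrial subunit, held 7770 to 13593 CPM (median 10270) in controls and 4129 to 7571 (median 6119) in MCD liver, a change of -0.84 ± 0.11 (edgeR FDR = 1.81e-07). The catalytic core of complex IV fell as well. mt-Co1, the most abundant member, had 19445 to 35501 CPM (median 29202) in controls and 15382 to 23402 (median 20062) in MCD liver. Its change of -0.56 ± 0.09 (edgeR FDR = 1.03e-05) lost its call without MCD replicate 6, 8 or 11 and in 7 of 13 fits with another scaling, filter, model, covariate or set of libraries, among them DESeq2, upper-quartile factors, total counts alone and the length score. mt-Co2, which accepts electrons from cytochrome c, changed by -0.68 and mt-Co3 by -0.77, both with separate groups. mt-Nd5, mt-Nd6 and mt-Cytb were the mitochondrial members that kept their call in every fit that left out 1 library and in each of 13 other fits that changed the scaling, filter, model, covariates or libraries at the same limits, apart from the scalings to the members themselves. With a log2 limit of 1, and when scaled to the mitochondrial members, mt-Nd6 and mt-Cytb were not called.

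Both mitochondrial subunits of the ATP synthase fell, mt-Atp8 further than mt-Atp6 with TMM, but not with the length score. mt-Atp6, the proton channel subunit, had 7537 to 11198 CPM in controls and 4116 to 6750 in MCD liver (-0.71 ± 0.09, edgeR FDR = 2.55e-07). mt-Atp8 had 551 to 972 CPM in 11 controls, 151 in control replicate 12 and 238 to 469 in MCD liver (-0.97 ± 0.18, edgeR FDR = 4.23e-05). Its call was lost with the length score (-0.55, edgeR FDR = 0.0106), where mt-Atp6 stood lower, at -0.63. These genes share bases of the same transcript, as do mt-Nd4l and mt-Nd4. The joins are printed because a read inside the shared bases belongs to both genes, and how the counting assigned such reads is not given in the sources used here. The first sequence below runs from chrM:7900-7999 and the second from chrM:10104-10203 of GRCm38 (GENCODE M21, plus strand), with the bases common to both genes in capitals, 43 in the first and 7 in the second.
mt-Atp8 to mt-Atp6: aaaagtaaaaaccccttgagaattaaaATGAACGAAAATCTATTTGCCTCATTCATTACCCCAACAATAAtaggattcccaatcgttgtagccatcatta
mt-Nd4l to mt-Nd4: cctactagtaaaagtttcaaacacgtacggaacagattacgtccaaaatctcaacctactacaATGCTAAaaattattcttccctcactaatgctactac
In each join the capitals open with the ATG that starts the downstream gene.

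The mitochondrial members did not fall by one common factor. The count of mt-Nd5 was 0.148 to 0.264 of that of mt-Co1 in the 11 other controls and 0.0804 to 0.130 in the MCD libraries, with no overlap, and 0.0686 in control replicate 12. mt-Nd4l to mt-Nd4 counts stood at 0.106 to 0.138 in those controls and 0.0719 to 0.117 in MCD liver, with 0.0306 in control replicate 12. mt-Atp8 to mt-Atp6 counts stood at 0.0686 to 0.0923, 0.0567 to 0.0746 and 0.0195 in the same order. Control replicate 12, the library with the lowest length score, was the lowest of all 24 in each of these ratios, both where the first gene is the longer of the pair (mt-Nd5, 1824 bases, against 1545 in mt-Co1) and where it is the shorter (mt-Nd4l, 297 bases, and mt-Atp8, 204 bases). The part of RNA length in these ratios was not tested. mt-Nd1 kept pace with mt-Co1, at 0.188 to 0.245 in controls and 0.203 to 0.261 in MCD liver. When each library was scaled to its mitochondrial members, mt-Nd5 was the member called, at -0.56 ± 0.15 (edgeR FDR = 0.00129), beside 2.11% of all genes called lower, and mt-Nd1 came out at 0.21 ± 0.08 (edgeR FDR = 0.0125), past neither limit. Without control replicate 12 both mt-Nd5 (-0.65) and mt-Nd4l (-0.58) were called lower on that scale, beside 2.32% of all genes. Both mitochondrial ribosomal RNAs, which are not members, also fell, with mt-Rnr1 at -0.75 ± 0.11 (edgeR FDR = 1.58e-06) and mt-Rnr2 at -0.73 ± 0.11 (edgeR FDR = 3.33e-06).

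Fewer of the nuclear members passed the limits. Of the 77 tested, 8 were called lower (19.1% of all genes were) and 1 higher (19.2% of all genes were). Their median log2 fold change was -0.28 with TMM and -0.12 with upper-quartile factors but 0.14, above 0, with total counts alone. Relative to the median of all genes it was -0.18 with TMM, -0.13 with total counts, -0.053 without control replicate 12 and -0.41 with the length score, where the mitochondrial median was -0.67, -0.66, -0.70 and -0.50. With TMM, 69 of the 77 nuclear values were below 0. Without control replicate 12 the median rose to -0.09, with 53 values below 0 and 3 members called lower (Sdha, Ndufs1 and Atp5a1). Leaving out MCD replicate 2, 4, 5, 6, 7 or 8 or control replicate 1 left 5 called lower, and leaving out MCD replicate 3, 11 or 12 left 4. With the length score as a covariate 44 were called lower, beside 17.4% of all genes, with a median of -0.54.

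**Figure D2:**
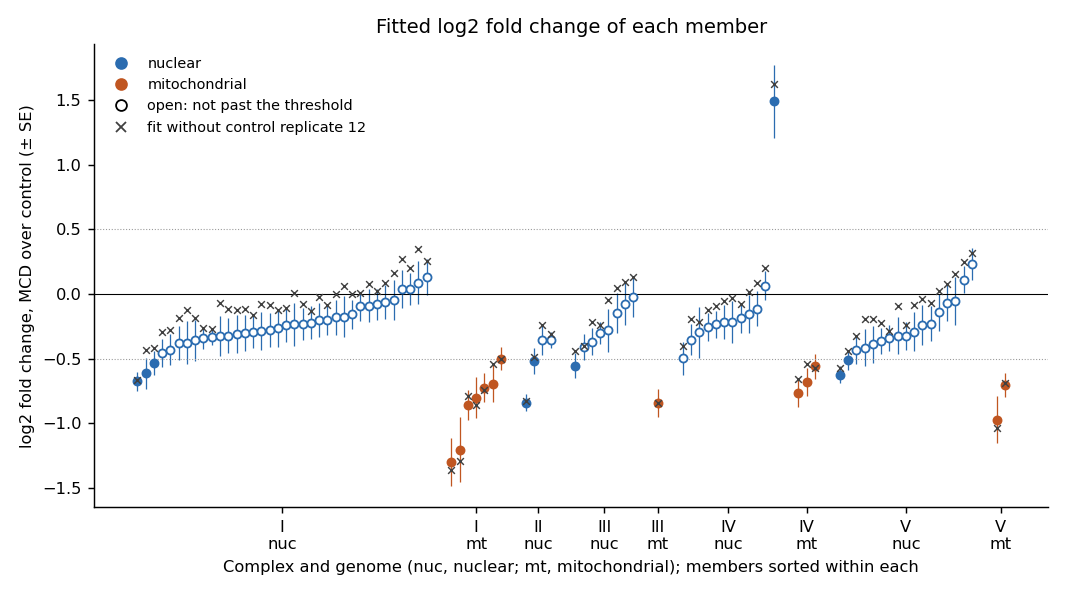
Fitted log2 fold change of each member kept by the filter (points, bars ± SE), sorted within each complex and genome; filled points passed both limits and crosses are the fit without control replicate 12. The 13 mitochondrial points lie at or below -0.50, most nuclear points lie between that level and 0 and move up without control replicate 12, and Cox6b2 stands alone at 1.49.

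Nuclear-encoded subunits are known to be under the control of the nuclear respiratory factor NRF1, the ETS factor GABP, YY1 and the estrogen-related receptors, and the promoters of 2 members are printed to show how the lowest and a high-lying member can carry the same NRF1 element. Sdha had the lowest value of the nuclear members and Atp5g2 one of the highest, a choice made after the values were seen. Each window is RefSeq sequence of GRCm38.p6 from 250 bases before to 50 after the start, on the minus strand, at chr13:74350191-74350490 for Sdha and chr15:102670998-102671297 for Atp5g2, and the capitals mark matches to GCGCANGCGC.
Sdha: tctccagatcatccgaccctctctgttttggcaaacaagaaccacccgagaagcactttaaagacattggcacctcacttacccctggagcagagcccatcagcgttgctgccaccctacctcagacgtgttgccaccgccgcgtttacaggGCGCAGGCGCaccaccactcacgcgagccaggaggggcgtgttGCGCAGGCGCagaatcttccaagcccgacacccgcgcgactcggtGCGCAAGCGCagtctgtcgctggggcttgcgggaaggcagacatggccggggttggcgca
Atp5g2: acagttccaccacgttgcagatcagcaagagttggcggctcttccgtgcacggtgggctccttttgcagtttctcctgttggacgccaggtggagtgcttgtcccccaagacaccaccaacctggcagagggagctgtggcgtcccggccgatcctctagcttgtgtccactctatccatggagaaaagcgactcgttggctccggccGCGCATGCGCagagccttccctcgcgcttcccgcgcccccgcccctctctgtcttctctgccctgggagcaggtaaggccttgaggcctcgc
The Sdha window holds 3 matches and the Atp5g2 window 1. RefSeq windows were found for 66 of the symbols tested, 71 windows in all. The NRF1 letters GCGCANGCGC lay in 18 of the 71 (25.4%) against 4.6% of all 32851 windows, and the ETS letters CCGGAAG in 16 (22.5%) against 8.86%. The YY1 letters AAGATGGCG lay in 7 (9.86%) against 1.4% and the estrogen-related receptor letters AAGGTCA in 8 (11.3%) against 4.72%, with both strands searched in each case. The median log2 fold change was -0.29 for the 17 members with an NRF1 match and -0.26 for those without, and for the ETS letters both medians were -0.26. A match describes the window and does not show that a factor bound there.

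Complex I had 36 nuclear members tested, with a median of -0.25 and 3 called lower (19.1% of all genes were). With control replicate 12 left out the median was -0.088 with 1 called lower (17.9% of all genes were). With total counts alone it was 0.15 with none lower and 2 higher (32.2% of all genes were higher). Ndufs1, the largest subunit of the peripheral arm and a carrier of iron-sulphur clusters, was at 80.9 to 114 CPM (median 107) in controls and 50.2 to 72.9 (median 62.5) in MCD liver. No MCD library reached the control range, and the change was -0.68 ± 0.07 (edgeR FDR = 1.63e-08). Ndufa6, an accessory subunit, had the next lowest value, with 98.6 to 265 CPM in controls and 75.3 to 95.7 in MCD liver. It changed by -0.61 ± 0.12 (edgeR FDR = 9.09e-05), and by -0.43 without control replicate 12, the library with its highest value, which ended the call. Ndufa10 (-0.54) also lost its call without that library and in 10 of the other fits that left out 1 library.

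None of the other core subunits described here for complex I was called. Ndufv1, which holds the NADH site, had -0.46 ± 0.11 (edgeR FDR = 0.00078), past the FDR limit and short of the fold limit. Its value was -0.29 without control replicate 12. Ndufs3 (-0.32), Ndufs8 (-0.31) and Ndufv2 (-0.20) were past neither, and without that library they stood at -0.12, -0.13 and -0.09. Ndufs7, another iron-sulphur subunit, lay on the other side of 0 at 0.04, with 57.1 to 183 CPM in controls and 69.0 to 93.5 in MCD liver. Without control replicate 12 its value was 0.27 (edgeR FDR = 0.000804), past the FDR limit and short of the fold limit. The count of Ndufs1 was 1.26 to 1.92 times that of Ndufs7 in the 11 other controls, 0.631 to 0.949 times in MCD liver and 0.443 times in control replicate 12. The highest fitted value in the complex belonged to Ndufa7 at 0.13 ± 0.14 (edgeR FDR = 0.413), whose groups overlapped. Ndufa7 stood at 0.25 without control replicate 12 and at 0.062 without control replicate 6. With control replicate 12 left out the highest value belonged to Ndufa2, an accessory subunit, at 0.35 ± 0.08 (edgeR FDR = 0.000804), against 0.09 with that library.

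Complex II, succinate dehydrogenase, links the chain to the citric acid cycle. Of its 4 subunits 2 were called lower (19.1% of all genes were). Without control replicate 12 it was 1 (17.9%), and with total counts alone 0 (6.01%), where 2 lay above 0. All 4 were past the FDR limit alone on the lower side, 3 without control replicate 12 and 1 with total counts alone. The share of all genes past that limit alone was not counted. Sdha, the flavoprotein that oxidises succinate, had 399 to 538 CPM (median 497) in controls and 227 to 303 (median 277) in MCD liver, so that the groups were far apart. Its change of -0.84 ± 0.07 (edgeR FDR = 5.77e-11) was the lowest of the nuclear members and nearly that of mt-Cytb. Control replicate 12 held the lowest control value, 399 CPM, and the change was -0.83 without it. The call was lost with total counts alone (-0.49), with scaling to the mitochondrial members (-0.12) and under a log2 limit of 1.

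Sdhd, a membrane anchor, changed by -0.52 ± 0.10 (edgeR FDR = 8.30e-05), from 128 to 265 CPM in controls to 133 to 173 in MCD liver. It lost its call in 14 of the 24 fits that left out 1 library and in the fit with replicate number as a block. The iron-sulphur subunit Sdhb (-0.36, edgeR FDR = 0.00872) and the anchor Sdhc (-0.36, edgeR FDR = 2.71e-05) stayed short of the fold limit, and Sdhb was at -0.24 (edgeR FDR = 0.0273) without control replicate 12. Sdha counts were 1.74 to 3.90 times those of Sdhb in the 11 other controls and 1.32 to 1.77 times in MCD liver, with little overlap, and 1.10 times in control replicate 12.

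Complex III had 8 nuclear members, all with fitted values below 0 and with a median of -0.29, and 1 was called lower (19.1% of all genes were). The median was -0.14 without control replicate 12, with 5 below 0 and none called, and with total counts alone it was 0.10 with 2 below 0. Uqcrb, a small subunit near the quinone site, went from 64.0 to 130 CPM in controls to 46.2 to 65.4 in MCD liver (-0.55 ± 0.10, edgeR FDR = 1.52e-05) and lost its call without control replicate 12 (-0.44) or MCD replicate 3, 11 or 12. The core proteins Uqcrc2 (-0.41, edgeR FDR = 0.00108) and Uqcrc1 (-0.37, edgeR FDR = 0.00379) and the Rieske iron-sulphur protein Uqcrfs1 (-0.30, edgeR FDR = 0.00381) were past the FDR limit alone. With control replicate 12 left out Uqcrc1 stood at -0.22, and Uqcrfs1, at -0.24 (edgeR FDR = 0.0112), was past neither limit. Uqcrh, the hinge protein of cytochrome c1, was at 53.9 to 216 CPM in controls and 86.2 to 144 in MCD liver. Its value of -0.03 ± 0.15 turned above 0 under each other scaling and most other models, and was 0.13 without control replicate 12.

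Complex IV had 12 nuclear members tested, with a median of -0.22 and none called lower (19.1% of all genes were), whereas its 3 mitochondrial subunits all were. The nuclear median was -0.067 without control replicate 12 and 0.19 with total counts alone, where none of the 3 mitochondrial subunits was called either. Cox7b had the lowest value, -0.50 ± 0.13 (edgeR FDR = 0.00137), just short of the fold limit. The subunits that exist in tissue-specific forms were measured mainly as their liver forms. Cox6a1 had 261 to 869 CPM in controls and 334 to 420 in MCD liver (-0.11 ± 0.13), and its muscle form Cox6a2 was left out by the filter, with a median of 0.05 CPM in controls and 0.55 in MCD liver. Cox8a had 169 to 417 and 179 to 228 CPM (-0.23 ± 0.11), whereas the muscle form Cox8b stood at no more than 1.31 CPM in any library and Cox8c at 0 in all. Cox7a2 (-0.22 ± 0.16) was similarly far above its muscle form Cox7a1 (-0.30 ± 0.20), at median control levels of 109 and 0.85 CPM. Leaving out control replicate 12 brought Cox6a1 to 0.08, Cox8a to -0.094 and Cox7a2 to -0.034.

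Cox6b2, a form of subunit VIb known from testis, was the nuclear member called higher, at 1.49 ± 0.28 (edgeR FDR = 5.18e-05) and 1.62 without control replicate 12. Its counts were 0 to 9 (median 4.5) in controls and 12 to 32 (median 17) in MCD liver, so it passed the filter through the MCD libraries and the size of the change rests on few reads. Cox6b1, the common form, was at 76.6 to 300 CPM in controls and 120 to 162 in MCD liver (-0.16 ± 0.14). Cox7a2l, a gene known from work on supercomplexes of complexes III and IV, had 0.06 ± 0.11. The count of Cox7a2 was 0.632 to 1.08 times that of Cox7a2l in the 11 other controls and 0.647 to 0.886 times in MCD liver, so the ranges overlapped. Ndufa4, named for complex I but known as a subunit of complex IV, had -0.26 ± 0.14. Control replicate 12 moved these values as well, since without it Cox6b1 stood at 0.014, Cox7a2l at 0.20 and Ndufa4 at -0.12.

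Complex V had 17 nuclear members tested with a median of -0.32. The 2 called lower (19.1% of all genes were) were the subunits that form its catalytic head. Leaving out control replicate 12 gave a median of -0.097 with 1 called lower (17.9% of all genes were). With total counts alone the median was 0.090 with none lower and 2 higher (32.2% of all genes were higher). Atp5a1, the alpha subunit, had 1031 to 1341 CPM (median 1214) in controls and 674 to 886 (median 776) in MCD liver, without overlap (-0.62 ± 0.06, edgeR FDR = 6.22e-09). Atp5b, the catalytic beta subunit, had 1025 to 1728 CPM in controls and 794 to 1040 in MCD liver (-0.51 ± 0.08, edgeR FDR = 1.88e-06), with 11 MCD libraries below every control. It lost its call in 12 of the fits that left out 1 library, for it lay at the fold limit. Atp5c1, the central stalk, followed at -0.43 ± 0.11 (edgeR FDR = 0.00154), short of that limit.

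The 3 genes for the same c-ring protein differed in their values. Atp5g1 had -0.42 ± 0.15 (edgeR FDR = 0.0149), Atp5g3, the most abundant at 223 to 497 CPM in controls, -0.32 ± 0.11 (edgeR FDR = 0.0114), and Atp5g2 0.11 ± 0.10 (edgeR FDR = 0.367), none of them called. Without control replicate 12 Atp5g1 stood at -0.20 and Atp5g2 at 0.24. The counts of Atp5g1 were 0.568 to 0.720 times those of Atp5g2 in the 11 other controls and 0.415 to 0.532 times in MCD liver, so the ranges did not meet, but they were 0.920 times in control replicate 12. Atp5s, known as a coupling factor, was the highest in the complex at 0.23 ± 0.12 (edgeR FDR = 0.104), on 2.41 to 7.04 CPM in controls. The second table row named Atp5o held almost no counts. Cox6c2 (annotated as a processed pseudogene), Cox7b2, Cox8b, Cox8c and Cox6a2 were the other members left out by the filter.

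Set against each other within a library, the 2 genomes differed by diet. Mitochondrial members took 7.29% to 11.4% of all counts in the 11 other controls, 5.26% in control replicate 12 and 5.44% to 7.73% in MCD liver. Nuclear members took 0.830% to 1.16%, 1.29% and 1.01% to 1.19%, so their share of the counts overlapped throughout. The ratio of mitochondrial to nuclear counts was 6.55 to 13.7 (median 7.88) in the 11 other controls and 5.04 to 6.97 (median 6.32) in MCD liver, while control replicate 12 had 4.08, the lowest of all libraries. Control replicates 3 and 6, the ones with the highest length scores, gave the highest ratios.

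**Figure D3:**
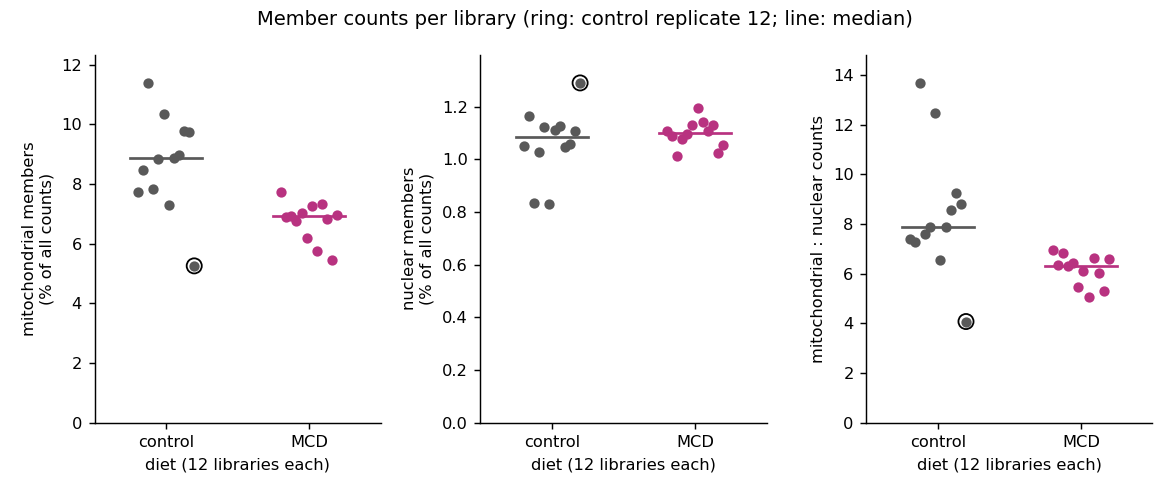
Share of all counts taken by the mitochondrial members (left) and by the nuclear members (middle), and the ratio of the 2 (right), in each library by diet; points are libraries, lines are medians and the ring marks control replicate 12. The median ratio is 7.88 in all 12 controls and 6.32 in MCD liver, and the nuclear share overlaps between the diets.

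The difference between the genomes was tested gene by gene by scaling each library to the summed counts of its nuclear members, an alternative added after the data were seen. On that scale 5 of the 13 mitochondrial members were called lower (7.02% of all genes were) and all 13 values were below 0, with a median of -0.50. The 5 were mt-Nd5 (-1.09 ± 0.24, edgeR FDR = 0.000306), mt-Nd4l (edgeR FDR = 0.00464), mt-Atp8 (-0.75), mt-Nd6 (-0.60) and mt-Cytb (-0.60). A further 4 (mt-Nd3, mt-Co2, mt-Co3 and mt-Atp6) passed the FDR limit alone. Without control replicate 12 the number called became 8 with a median of -0.58 (9.91% of all genes were called lower), and without control replicates 3, 6 and 12 it was 3 with a median of -0.38 (6.45%).

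On the same scale 1 nuclear member was called lower and 3 higher (7.02% of all genes were called lower and 28.4% higher). The summed count of the nuclear members sets this scale, so their values are held near 0 by design. They show only how these members differ from one another. Sdha was the one lower, at -0.57 ± 0.12 (edgeR FDR = 0.000192), and Cox6b2 (1.81), Atp5s (0.55) and Ndufa7 (0.50) were higher. Within complex II, Sdhb had -0.00 ± 0.05 on this scale. Total counts alone called 5 of the 13 mitochondrial members lower (6.01% of all genes were), and these were again mt-Nd5, mt-Nd4l, mt-Atp8, mt-Nd6 and mt-Cytb, at -0.98, -0.89, -0.65, -0.50 and -0.50. The part of RNA length in the gap between the genomes was not tested beyond the fit with the length score, in which 8 of 13 mitochondrial members were called lower with a median of -0.63 and 44 of 77 nuclear members with a median of -0.54.

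**Figure D4:**
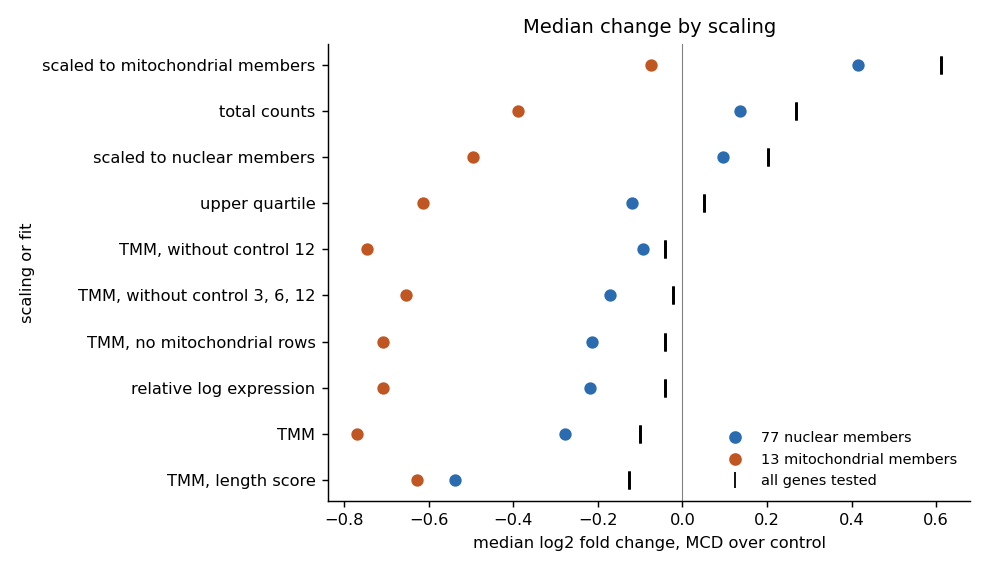
Median log2 fold change of the 77 nuclear members, the 13 mitochondrial members and all genes tested (horizontal axis) under each scaling or fit (vertical axis). The mitochondrial median lies left of the nuclear one in every row, by the least with the length score (-0.63 against -0.54), and the nuclear median is above 0 with total counts (0.14), nuclear-member scaling (0.10) and mitochondrial-member scaling (0.41). A scaling set on one group of members holds the median of that group near 0 by design.

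Among the nuclear members, those with longer transcripts tended to have the lower values. Spearman's rho between log2 fold change and the length of the principal transcript was -0.53 over the 77 members, and -0.51 without control replicate 12. Over 12953 genes it was -0.20. The genes share libraries and depth, and the values are a description. The 39 members with transcripts of 861 bases or more had a median of -0.34 with 6 called lower, against -0.21 with 2 called lower and 1 called higher for the 38 shorter ones. Without control replicate 12 the medians were -0.18 with 3 called lower and -0.043 with 0 lower and 1 higher. With total counts alone they were 0.052 and 0.20, with 0 lower in either group and 1 and 4 higher. Sdha, Ndufs1, Atp5a1, Ndufa10 and Atp5b were among the longest. With the length score in the fit the 2 medians were -0.59 and -0.48, and rho was -0.39 over the members and -0.01 over all genes.

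**Figure D5:**
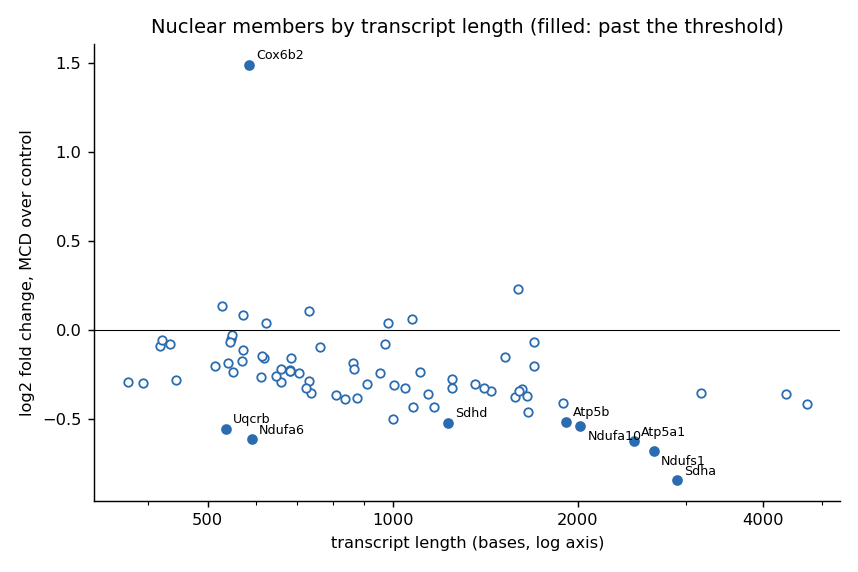
Log2 fold change of each nuclear member (vertical axis) against transcript length in bases on a log axis; filled points passed both limits and are named. Values tend to be lower at greater length (rho -0.53), and 5 of the 8 members called lower (Sdha, Ndufs1, Atp5a1, Ndufa10 and Atp5b) sit at 1916 to 2900 bases. Ndufa6 (590 bases), Uqcrb (535) and Sdhd (1231) are shorter, and the 3 longest members (3171 to 4715 bases) lie higher again, at -0.42 to -0.36.

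The shares of all genes to read the following lists against are 19.1% called lower and 19.2% higher with TMM, and 6.01% and 32.2% with total counts alone. Subunits and partners outside the naming patterns were mostly past neither limit. Of 7 such genes tested, Atpif1, the inhibitor of ATP hydrolysis by complex V, was the one called, and it rose by 1.08 ± 0.13 (edgeR FDR = 1.28e-07), from 7.99 to 22.1 CPM in controls to 24.4 to 36.5 in MCD liver, without overlap. Cox4i1, the common form of subunit IV, was at -0.01 ± 0.15, and at 0.15 without control replicate 12. Of 52 assembly factors tested for the 5 complexes, 8 were called lower and 1 higher, with a median of -0.22. Without control replicate 12 the numbers were 5 and 1, with a median of -0.13. With total counts alone none was called lower and 4 higher, and the median turned to 0.18. Coa5, a factor for complex IV, was the lowest at -0.79 ± 0.11 (edgeR FDR = 4.95e-07), and Surf1 was the least changed of the 5 called for that complex (-0.52, and -0.36 and not called without control replicate 12). Tmem126b and Tmem70, both at -0.59, were called from the list for complex I, although Tmem70 is known for the assembly of the ATP synthase as well, and for complex III Bcs1l, which inserts the Rieske protein, fell (-0.61, but -0.49 and not called without control replicate 12) while Uqcc2 rose (0.52). None of the 4 factors for complex II or the 4 listed for complex V alone was called.

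Several regulators of mitochondrial biogenesis fell. Of 12 tested, 6 were called lower and none higher, with a median of -0.53, and 5 were called lower without control replicate 12. With total counts alone 4 were called lower and 1 higher, with a median of -0.16. Esrrg, an estrogen-related receptor, had the lowest value (-2.31 ± 0.39, edgeR FDR = 1.15e-05), from 0.396 to 10.1 CPM (median 6.03) in controls to 0.291 to 2.32 (median 0.862) in MCD liver. Ppara, the fatty acid receptor that drives oxidation genes in liver, went from a median of 131 CPM to 34.9 (-1.76), Ppargc1b from 6.00 to 3.08 (-1.12) and Gabpa, the DNA-binding part of GABP, from 46.7 to 21.1 (-1.04). Yy1 was the least changed of those called (-0.56). Ppargc1a (-0.29), Nrf1 (0.26) and Tfam (-0.49), which packages mitochondrial DNA and starts its transcription, were not called.

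Of 29 genes for the expression of mitochondrial DNA, 7 were called lower and none higher, with a median of -0.28, and 4 were called lower without control replicate 12. With total counts alone none was called lower and 1 higher, and the median turned to 0.076. Fastkd1, an RNA-binding protein of mitochondria, had the lowest value (-0.81 ± 0.09, edgeR FDR = 3.79e-08) and Grsf1, of the RNA granules, the one nearest to the limit (-0.51). Lrpprc, which stabilises mitochondrial mRNAs, was chosen here after its value was seen and went from 102 to 152 CPM in controls to 60.2 to 87.6 in MCD liver (-0.70). The 78 genes of the mitochondrial ribosome had a median of -0.08, with 3 called lower and 1 higher, of which Mrps2 (-0.56) and Mrpl54 (0.64) lay farthest out. Their median turned to 0.089 without control replicate 12, with 1 called lower and 1 higher, and to 0.32 with total counts alone, with none lower and 15 higher.

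The citric acid cycle, which feeds complexes I and II, had 4 of 13 genes called lower and none higher, with a median of -0.39 and 3 called without control replicate 12, but none with total counts alone (median -0.029). Sucla2, a succinyl-CoA ligase subunit, was the lowest (-0.78 ± 0.07, edgeR FDR = 3.11e-10) and Idh3b, of isocitrate dehydrogenase, the least changed of those called (-0.50). For ubiquinone synthesis 4 of 13 were lower and 1 higher, with a median of -0.21. The numbers were 2 and 1 without control replicate 12 (median -0.10), and 1 and 1 with total counts alone, where the median turned to 0.17. The kinase-like Coq8a fell (-1.20 ± 0.10, edgeR FDR = 1.64e-10) and its relative Coq8b rose by 0.56 ± 0.09 (edgeR FDR = 6.99e-06). Among 9 carriers, porins and uncoupling proteins, 2 were called, both higher, with a median of 0.07. The median was 0.14 without control replicate 12, with 2 higher, and 0.46 with total counts alone, with 3 higher. Ucp2 went from 41.8 to 116 CPM to 248 to 370 (1.87 ± 0.16, edgeR FDR = 1.57e-10) and the adenine nucleotide carrier Slc25a4 from 4.72 to 11.4 CPM to 18.8 to 34.9 (1.67 ± 0.14, edgeR FDR = 2.10e-10), with no overlap in either.

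Markers of the cell types in the livers moved with the diet too. Of 10 hepatocyte markers 5 were lower and none higher, with a summed level of 80102 to 185496 CPM in controls and 58436 to 86056 in MCD liver, but with total counts alone none of the 10 was called (median -0.18). All 7 markers of monocyte-derived macrophages were higher (46.5 to 210 CPM against 1091 to 2157), all 6 of cholangiocytes (4.03 to 17.8 against 45.2 to 108), 6 of 8 of mesenchymal cells (219 to 627 against 815 to 1414) and 4 of 8 of lymphocytes (4.30 to 12.7 against 11.3 to 25.9). Lrat, the enzyme of retinol storage in stellate cells, was the mesenchymal marker called lower (-0.93). Kupffer cell markers were lower in 5 of 6 (149 to 445 against 81.3 to 297) and endothelial markers in 5 of 7 (198 to 293 against 118 to 183), but with total counts alone in 2 of each. The 7 striated muscle markers summed to at most 4.85 CPM in any library, and Ucp1, which defines brown adipocytes, was at no more than 0.0930 CPM in controls and 8.35 in MCD liver. Of the 5 brown adipocyte markers 1 was tested, Elovl3, and it was called lower (-2.58, and -2.30 without control replicate 12) but not with total counts alone. The sum of these markers was 92.1 to 110 CPM in control replicates 1, 9, 10 and 12, which also had the lowest TMM factors (0.64 to 0.84), 0.509 to 44.2 in the other controls and 1.14 to 34.8 in MCD liver. In controls Ucp1 added at most 0.0930 CPM to this sum, so the sum there rests on the other markers. The source of the sum was not tested. The part of cell composition in the change of either genome was not tested.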

How the data were processed

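Whole-liver poly(A) RNA was sequenced from 24 mice, 12 per diet. The deposited table holds raw read counts per gene, which the authors made with STAR 2.7.3a on mm10 per the labels. How reads in overlapping genes or on either strand were counted is not given in the sources used here, and mitochondrial genes overlap one another. Rows without a symbol held 0.0808% of the counts.

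Genes were kept by filterByExpr with diet and fitted by the quasi-likelihood test of edgeR 4.0.16 with TMM factors and Benjamini-Hochberg adjustment over 14109 genes. DESeq2 1.42.0, voom of limma 3.58.1, other scalings, filters, thresholds, covariates and the omission of libraries were alternatives. The procedure was tested on simulated data of these libraries. Of 100 genes changed by 0.75 on the log2 scale 67 were called, and of 100 changed by 1 it was 84. Of 13909 unchanged genes 0 were called. The simulation changed few genes and held no effect of transcript length, so it cannot judge results that move with scaling or with control replicate 12. Transcript lengths and positions came from GENCODE M21 (principal transcripts) and promoters from RefSeq.

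Members and lists were chosen with earlier results of these data known. Genes named were all mitochondrial members, the highest and lowest nuclear member per complex, catalytic or core subunits, isoform families, and the highest and lowest called gene of each comparison list, except 1 gene that is not reported here. Ndufa2, Ndufa6, Ndufa10, Ppara, Ppargc1a, Ppargc1b, Gabpa, Nrf1, Tfam, Lrpprc and the genes of the mitochondrial ribosome were chosen after their values were seen. The libraries are separate animals, and no batch is given for them.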

Additional observations from a re-analysis of the deposited data

How the results depend on the processing

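All 13 mitochondrial members stayed below 0 in every alternative that did not scale to them, and 11 of them kept their call whichever library was left out. Fits that left out 1 library called 11 to 13 mitochondrial members lower (median -0.81 to -0.69), 3 to 9 nuclear members lower (median -0.33 to -0.094) and 1 higher, with Uqcrh at -0.092 to 0.13, Cox6a1 at -0.16 to 0.084 and Cox6b1 at -0.22 to 0.014. Total counts alone gave 4539 genes higher and 848 lower, 5 nuclear members higher and 0 lower (median 0.14) and 5 mitochondrial members lower (median -0.39). They turned these values above 0: Sdhc 0.011, Uqcrh 0.38, Ndufs3 0.089, Ndufs8 0.10, Ndufv2 0.19, Sdhb 0.035, Uqcrfs1 0.071, Uqcrc1 0.026, Cox6a1 0.30, Cox6b1 0.25, Cox7a1 0.074, Cox7a2 0.19, Cox8a 0.16, Atp5g3 0.058 and Ndufa4 0.14. Total counts without control replicate 12 gave 4635 genes higher and 1098 lower, 8 nuclear members higher and 1 lower (median 0.20), 6 mitochondrial members lower (median -0.46), and Uqcrh 0.44, Ndufs3 0.18, Ndufs8 0.18, Ndufv1 0.0026, Ndufv2 0.21, Sdhb 0.063, Uqcrfs1 0.055, Uqcrc1 0.077, Cox6a1 0.38, Cox6b1 0.31, Cox7a1 0.073, Cox7a2 0.27, Cox8a 0.20, Atp5g1 0.098, Atp5g3 0.057 and Ndufa4 0.18. Nuclear members called lower numbered 4 with DESeq2, with relative log expression factors and with TMM factors set without mitochondrial rows, 5 without a filter, 2 with upper-quartile factors (1710 genes lower), and 44 with the length score, where 8 mitochondrial members were. At least 10 counts in every sample left 1801 genes higher, 0 nuclear members higher and 4 lower. Uqcrh was 0.036 with DESeq2 and with relative log expression factors, 0.038 without mitochondrial rows, 0.061 with the count minimum, 0.047 with limma-voom, 0.025 without a filter, 0.048 with the replicate block, 0.13 with upper-quartile factors (Cox6a1 0.043, Cox6b1 0.00084) and 0.013 without control replicates 3, 6 and 12 (Cox6a1 0.022). The length score turned Ndufa7 (-0.20), Ndufs7 (-0.21), Cox7a2l (-0.18) and Atp5g2 (-0.12) below 0. An FDR of 0.05 with no fold limit called 8963 genes, 5221 of them lower, and 31 nuclear members lower. A log2 limit of 1 called 2548 genes, 686 lower, with 0 nuclear and 2 mitochondrial members lower. The causes were not tested. No label ties a replicate number of one diet to the same number of the other, and on that ground the libraries were analysed as unpaired. Same-number libraries correlated at a median of 0.23 in their deviations from the diet means, above 0.1 in 8 of 12 pairs, against -0.059 for other pairs. Of 24 libraries 3 correlated best with their own number. What same-number libraries share was not tested. A replicate block called 7 nuclear members lower, without Sdhd, and 13 mitochondrial members (medians -0.20 and -0.75). Depth limits Cox6b2, at 0 to 9 counts in controls, and Cox7a1, at 7 to 28 in all libraries.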
